A study of Mus musculus with 2 samples.

Results

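Repeat-made distal peaks are regions of open chromatin whose own sequence is almost all repeat: at least 80% of their bases are in lower case (repeat-masked) in the mouse reference, and they lie over 1 kb from every annotated transcription start site (TSS) on chromosomes 1 to 19. They numbered 317 of 46778 distal autosomal peaks in replicate 1 (0.678%) and 539 of 81903 in replicate 2 (0.658%), a mean share of 0.668% ± 0.0138 (SD, n = 2). They were set against distal peaks with no masked base, called repeat-free here, which numbered 25676 and 40444. The main peak lists, the shorter of the lists deposited for each library, held 73221 and 111105 peaks on all chromosomes. The assay was DNase-seq, which cuts nuclear DNA with DNase I and finds open chromatin as places where cuts pile up. Both libraries came from the left cerebral cortex of adult male mice of strain B6CASTF1/J, an F1 hybrid of C57BL/6 and the wild-derived CAST strain, aged 18 to 20 months and with no treatment given in the labels. The labels number them biological replicates 1 and 2, with separate tissue samples under a shared donor entry, so the spread between them may be technical. There is a single group of 2 libraries, with which an exact two-sided test of a difference cannot give a p below 0.5, so no test was run. Peaks of a library are not replicates: values are given per library, with the SD over both. Read totals were not analysed here, so the depth is unknown and no counting interval is given.

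Nearly all interspersed repeats of mammals are remains of transposable elements, which copied themselves through the genome, and satellites are short units repeated in tandem, mostly near centromeres. Most such sequence is packed in closed chromatin, but some copies carry sites that transcription factors bind. In mice, short interspersed elements of the B2 family are known to carry sites of CTCF, a zinc finger protein that anchors chromatin loops and blocks contacts between neighbouring domains. A read from a repeat can match several places, so that a peak on young, near-identical copies is harder to place than one on old copies that have diverged. No annotation of repeat families was used here, so the sequence groups below have numbers and no family names.

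The following sequences are of peaks that the results turn on, read from the RefSeq sequence of build mm10 (GRCm38.p6) on the plus strand. Capitals mark the bases inside footprints, which are short stretches protected from DNase I that the authors called in the same library. The first 3 are peaks with a CTCF motif, and in each a single footprint covers all 12 bases of the match. The next 3 stand for the other large sequence groups. The last is from a satellite-like array at the start of chromosome 9. They lie, in the order shown, at chr7:139861561-139861700, chr15:98710541-98710720, chr3:107918141-107918320, chr15:77269581-77269820, chr10:127122861-127123080, chr14:93214901-93215060 and chr9:3002041-3002220.
Intron of Adgra1, replicate 1: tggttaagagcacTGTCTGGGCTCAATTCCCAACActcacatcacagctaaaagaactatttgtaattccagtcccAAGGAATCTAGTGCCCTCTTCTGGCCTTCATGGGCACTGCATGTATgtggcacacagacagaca
Intron of Ccdc65, replicate 1: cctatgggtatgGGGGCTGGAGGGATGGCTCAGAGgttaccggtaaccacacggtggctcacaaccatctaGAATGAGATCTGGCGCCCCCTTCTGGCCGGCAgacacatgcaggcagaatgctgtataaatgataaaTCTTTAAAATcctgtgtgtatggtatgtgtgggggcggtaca
Near Gm12489, replicate 1: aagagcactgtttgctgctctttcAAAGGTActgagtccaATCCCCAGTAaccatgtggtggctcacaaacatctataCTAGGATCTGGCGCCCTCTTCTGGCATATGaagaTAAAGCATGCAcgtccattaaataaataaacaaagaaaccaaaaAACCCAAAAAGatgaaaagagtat
Intron of Rbfox2, replicate 2: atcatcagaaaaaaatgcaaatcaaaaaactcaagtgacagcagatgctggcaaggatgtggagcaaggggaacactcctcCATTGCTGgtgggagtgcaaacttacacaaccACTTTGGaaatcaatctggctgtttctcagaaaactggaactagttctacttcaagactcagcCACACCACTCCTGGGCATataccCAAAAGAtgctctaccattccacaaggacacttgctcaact
Near Os9, replicate 1: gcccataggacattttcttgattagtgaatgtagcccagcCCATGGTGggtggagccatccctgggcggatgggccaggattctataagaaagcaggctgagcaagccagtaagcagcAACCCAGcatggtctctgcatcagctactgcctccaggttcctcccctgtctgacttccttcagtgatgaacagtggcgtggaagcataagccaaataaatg
Intron of Pcdh9, replicate 1: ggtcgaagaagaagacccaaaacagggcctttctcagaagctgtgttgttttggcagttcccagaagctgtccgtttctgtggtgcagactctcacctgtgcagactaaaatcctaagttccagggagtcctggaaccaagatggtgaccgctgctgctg
Exon of Gm10722, replicate 1: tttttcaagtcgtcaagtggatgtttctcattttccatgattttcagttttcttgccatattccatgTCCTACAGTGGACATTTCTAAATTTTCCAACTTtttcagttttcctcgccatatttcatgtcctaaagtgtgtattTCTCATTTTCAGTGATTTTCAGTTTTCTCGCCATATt

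Repeat-made peaks were scarce relative to the repeat sequence on offer. Masked bases made up 33.5% of chromosomes 1 to 19, and 16.7% of all 160-base windows were at least 80% masked, which is 24.7 times the share of repeat-made peaks among the distal peaks of replicate 1 and 25.4 times that of replicate 2. The windows were not limited to distal sequence or to sequence where reads can be placed. The part of this in the scarcity was not tested. Masked runs in this reference were short, with a median of 29 bases and an upper quartile of 53. The program that masked it is not given in the sources used here. Another masking could choose other members and other repeat-free peaks, and how far the results depend on this was not tested. The peaks sat in repeat-rich surroundings: in the 50-base bin farthest upstream of the peak centre, 975 bases away, 39.3% of bases were masked around repeat-made peaks in both libraries, against 23.0% and 23.4% around repeat-free peaks. Fully masked peaks numbered 92 and 191, and the other members, 80 to below 100% masked, numbered 225 and 348. Just inside the threshold, 32 and 56 peaks were 80 to below 82% masked, with median signals of 0.907 and 0.497, and just outside it 38 and 38 peaks were 78 to below 80% masked, with 1.03 and 0.641.

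Repeat-made peaks were weaker and narrower than repeat-free ones. The deposited signal, a value per peak that the authors computed and whose scale is not stated, was lower for repeat-made peaks, whose medians were 0.831 (replicate 1) and 0.500 (replicate 2), against 1.07 and 0.781 for repeat-free peaks. The difference was -0.259 ± 0.0302 (SD, n = 2), so it had the same sign and a similar size in both libraries. In whole steps of the deposited scale the medians were 126 and 75 for repeat-made peaks and 162 and 117 for repeat-free peaks. The quartiles of the repeat-made peaks ran from 0.574 to 1.21 in replicate 1 and from 0.340 to 0.701 in replicate 2. Those of the repeat-free peaks ran from 0.719 to 1.92 and from 0.507 to 1.29, so the classes overlapped widely and the upper quartiles lay farther apart than the lower ones. Median width was 137 and 127 bp for repeat-made peaks, against 163 and 183 bp for repeat-free peaks, a difference of -41 bp ± 21.2 (SD, n = 2). The rule itself can favour narrow peaks, since masked runs are short and a wide peak is harder to fill with them. The mean difference was -30 bp with a threshold of 50% masked and -60 bp at full masking. The part of the rule in the width was not tested. Mean GC content was 49.7% and 47.6% in repeat-made peaks and 52.7% and 49.7% in repeat-free peaks, and CpG dinucleotides were sparser, at 12.9 and 9.60 per kb against 24.5 and 19.3 per kb. The weakness was not shared by all members, since the strongest had signals of 14.7 and 9.69. Both values are from a single locus of chromosome 9, none of whose 32-base windows occurred once in the genome. The 99th percentile of the repeat-made peaks was 2.99 and 1.82, against 6.52 and 4.03 for repeat-free peaks. In a bulk tissue, an opening in fewer cells and a smaller opening in each cell cannot be told apart. A loss of reads that match several places was not tested as a part of the lower signal. Among peaks with at least 90% of their 32-base windows found once in the genome, the difference was -0.152 and -0.267.

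**Figure D1:**
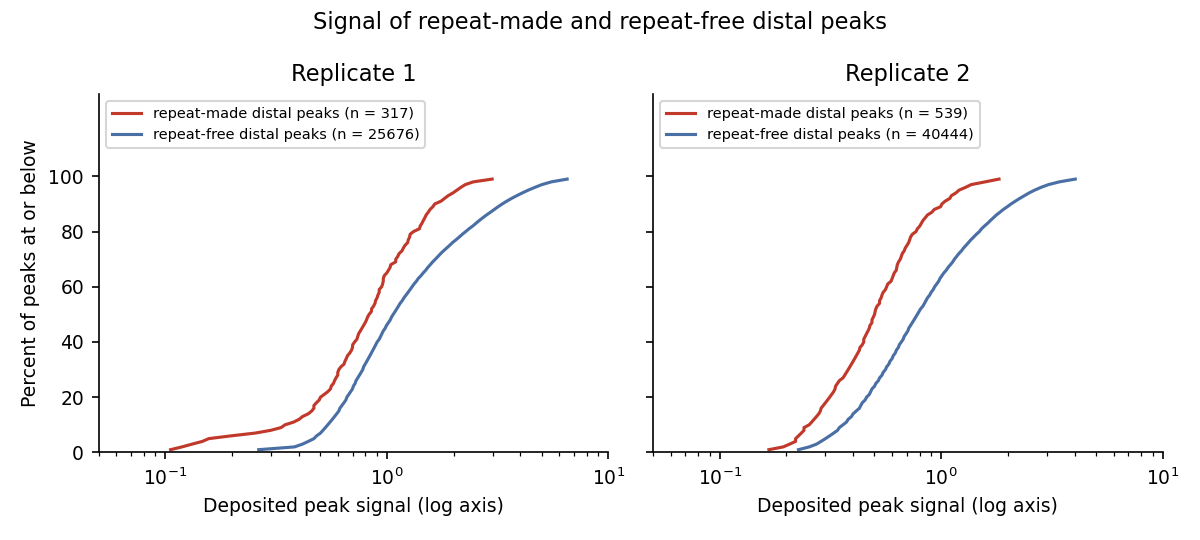
Percent of peaks (vertical axis) at or below each deposited peak signal (horizontal log axis, 1st to 99th percentile) for repeat-made (red) and repeat-free (blue) distal peaks of each library. The red curve lies left of the blue one in both panels, with medians of 0.831 and 0.500 against 1.07 and 0.781.

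The motif of CTCF marked a large part of the repeat-made peaks. The pattern searched on both strands was CCA, AG and GGC in this order with 2 bases of any kind in each gap. It was present in 143 repeat-made peaks of replicate 1 (45.1%) and 118 of replicate 2 (21.9%), against 14.7% and 9.09% of the repeat-free peaks. Among all distal peaks the shares were 17% and 9.74%. The difference between repeat-made and repeat-free peaks was 21.6 percentage points ± 12.4 (SD, n = 2). The share rose with masking: in replicate 1 it was 14.7% at no masking, 20.1% at 20 to 40% masked, 46.4% at 60 to 80% and 50.7% at 80 to below 100%, then 31.5% in fully masked peaks. Replicate 2 had the same shape at lower shares, with 24.1% at 80 to below 100% masked and 17.8% at full masking.

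**Figure D2:**
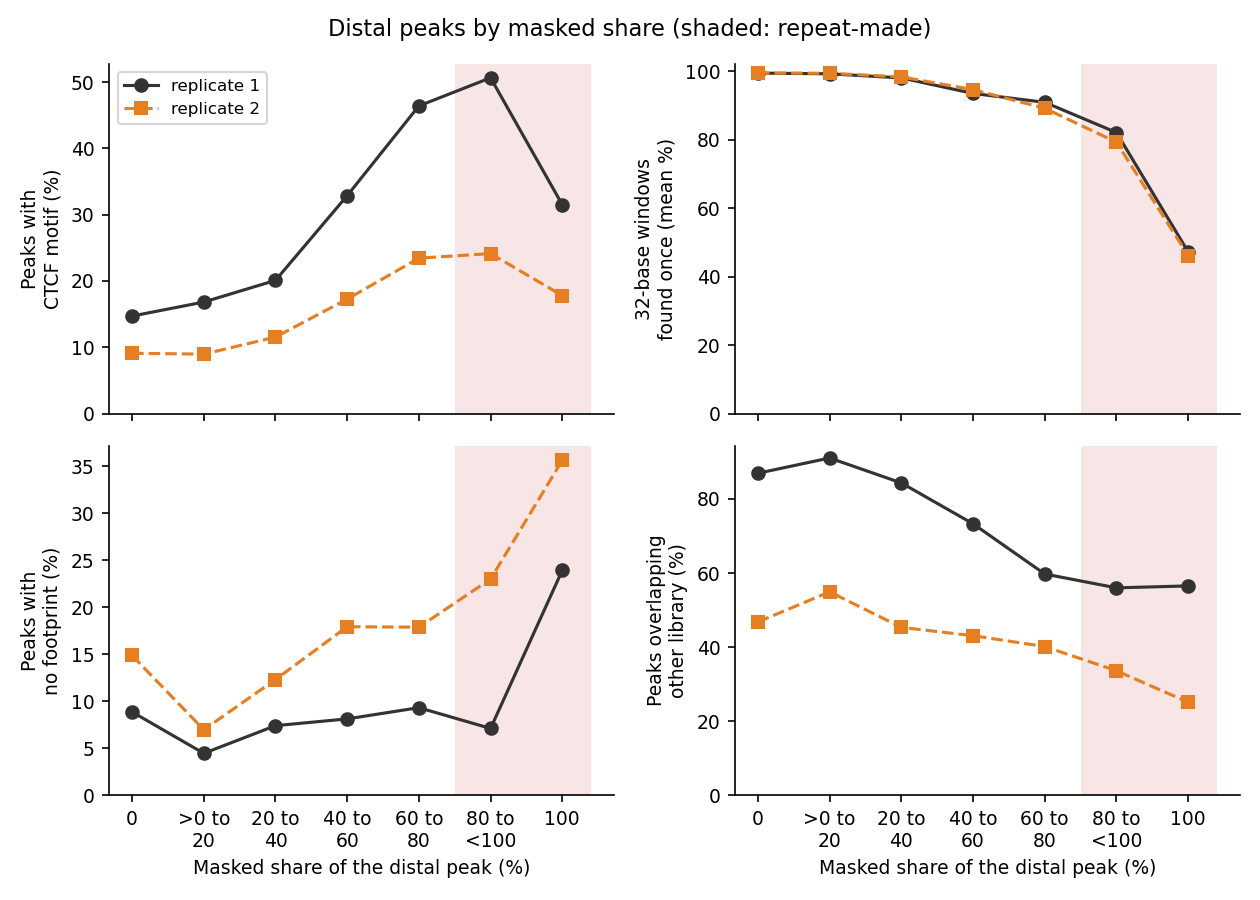
Distal peaks of each library by masked share (horizontal axis, percent of bases): share with a CTCF motif, mean share of 32-base windows that occur once in the genome, share with no footprint, and share overlapping a main peak of the other library (vertical axes, percent). Circles are replicate 1, squares replicate 2, and the shading marks the repeat-made peaks; the CTCF share is highest at 80 to below 100% masked in both libraries (50.7% and 24.1%).

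The motif lay near the middle of the peak and under a footprint. Its centre was a median of 11.5 and 13.5 bp from the peak centre in repeat-made peaks, against 9 and 10 bp in repeat-free peaks. In replicate 1, 131 of 145 motif sites in repeat-made peaks (90.3%) had their centre in a footprint, about the share in repeat-free peaks (91.4%). In replicate 2 it was 80 of 120 sites (66.7%) against 84.3%. These footprints were wide, with a median of 31 bp in replicate 1 and 25.5 bp in replicate 2, against 30 and 29 bp at repeat-free sites. Repeat-made peaks with the motif were stronger than those without it, with medians of 1.01 against 0.660 in replicate 1 and 0.624 against 0.467 in replicate 2. They were far weaker than repeat-free peaks with the motif, whose medians were 2.20 and 1.31. Of them, 3 of 143 (2.10%) and 11 of 118 (9.32%) lacked a footprint, against 35 of 174 (20.1%) and 137 of 421 (32.5%) repeat-made peaks without the motif. Repeat-free peaks had the same contrast at lower shares, with 0.874% and 2.64% with the motif against 10.2% and 16.1% without it.

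Most of these peaks held the same form of the motif. The most frequent 12-base word of the repeat-made peaks, CCAGAAGAGGGC, was in 94 of them in replicate 1 (29.7%) and 86 in replicate 2 (15.96%), and in 4 repeat-free peaks of each library. It fits the CTCF pattern and is the match, read on the minus strand, in the Adgra1 and Gm12489 peaks printed above; the Ccdc65 peak has CCAGAAGGGGGC in its place. On chromosomes 1 to 19 the word occurred 48147 times in fully masked sequence and 208 times elsewhere. The word was picked from the repeat-made peaks themselves, and repeat-free peaks hold no masked base. The contrast in this word between the classes therefore follows largely from the rule. Only a small part of the masked copies, 1.47% in replicate 1 and 1.12% in replicate 2, lay in a main peak. Of all CTCF motif matches, 71024 were fully masked and 63619 were not; 1.86% and 1.54% of the masked matches lay in a main peak, against 12.6% and 13.01% of the others.

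Of 16 motifs searched, 12 were found in repeat-made peaks of both libraries and 4 in none. Of the 12, 3 were in a larger share of the repeat-made than of the repeat-free peaks in both libraries, 7 in a smaller share, and 2 changed direction between the libraries. Since repeat-made peaks are narrower, the sites were also counted per kb of peak: 4 motifs were then denser in repeat-made peaks in both libraries, 6 sparser, and 2 changed direction. The 3 were CTCF, the E-box CAGATG, a form bound by neuronal helix-loop-helix factors, and the YY1 word, AAGA joined to TGGC. The E-box was in 26.2% and 26.3% of repeat-made peaks against 21.9% and 24.2% of repeat-free peaks. The YY1 word, from the site of a zinc finger factor, was in 10 and 13 repeat-made peaks (3.15% and 2.41%), against 313 and 446 repeat-free peaks. The AP-1 site of Fos and Jun dimers, TGANTCA, was in 6.94% and 14.1% of repeat-made peaks, against 12.3% and 17.3% of repeat-free peaks. Per kb the AP-1 direction turned in replicate 2, with 0.544 and 1.13 sites per kb in repeat-made peaks against 0.847 and 1.097 in repeat-free peaks. GGGCGG, the GC box of SP and KLF factors, was in 4.10% and 2.60% against 9.37% and 6.82%, and the E-box CAGCTG in 6.62% and 7.05% against 17.2% and 17.2%. The CREB site (TGAC joined to GTCA), the EGR site (GCGTG joined to GGCG) and the palindromic patterns of NFI and RFX were in none of the repeat-made peaks, which allows shares of up to 0.946% (0 of 317) and 0.557% (0 of 539), for counting error only. The repeat-free shares lay below these limits, so a difference was not detectable at this number of peaks: 0.522% and 0.425%, 0.292% and 0.193%, 0.0779% and 0.0643%, and 0.191% and 0.250%, in the order named. The NFI pattern was TTGGC and GCCAA at a gap of 5 bases, and the RFX pattern GTT, CCATGG and AAC at gaps of 1 base. The NRF1 site (GCGC joined to ATGCG) was in 1 repeat-made peak of each library, with 2 sites in it. This is 0.315% and 0.186% of repeat-made peaks, against 0.351% and 0.168% of repeat-free peaks. SOX (ACAATG) was in 4.42% and 4.82% of repeat-made peaks against 7.18% and 8.86% of repeat-free peaks, and AGGTCA, the core of nuclear receptor sites, in 2.21% and 2.23% against 5.67% and 5.39%. The ETS word CCGGAAG was in 0.631% and 0.557% against 1.47% and 1.24%, and the MEF2 pattern, CTA and TAG at a gap of 4 bases, in 1.58% and 1.86% against 2.75% and 3.66%. The POU word, ATGC joined to AAAT, was in 0.631% and 1.86% of repeat-made peaks against 0.978% and 1.47% of repeat-free peaks.

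Much of the class came from a few kinds of sequence. The 856 member peaks of both libraries covered 726 loci, 130 of which had a member in both. Aligned to each other (at least 80 bp at 75% identity or more), 457 peaks fell into 4 groups of 10 or more, 118 into 39 smaller groups, and 281 had no partner. Peaks of both libraries were aligned together, so a locus found in both is its own partner: 20 of the 25 groups of 2 peaks were a locus of this kind. Group 1, the largest, held 152 peaks of replicate 1 and 129 of replicate 2, which is 47.9% and 23.9% of the members. A CTCF motif was in 82.9% and 72.1% of its peaks, and its median signal was 1.03 and 0.621. In replicate 1 a single peak of group 1 lacked a footprint, and in replicate 2 it was 17. Its 32-base windows occurred once in the genome in 85.4% and 81.7% of cases.

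Group 2 lay mostly in replicate 2, with 24 peaks in replicate 1 and 113 in replicate 2 (7.57% and 20.96% of the members). Its median signals were 0.709 and 0.480, and 57.1% of its windows were unique. Only 3.65% of its peaks held a CTCF motif, and its most frequent word, CTCCTGGGCATA, is in the Rbfox2 peak printed above, where it overlaps a footprint. Of its peaks in replicate 2, 17 of 113 overlapped a main peak of replicate 1. Group 3, with 3 and 24 peaks, had a similar lean to replicate 2, a median width of 200 bp and no CTCF motif; the peak near Os9 is its strongest pair. Group 4 held 7 and 5 peaks at 8 loci, with the highest GC content of the 4 groups (61.6%) and the lowest share of unique windows (28.2%). Of its 12 peaks, 7 had no footprint, as in the Pcdh9 sequence, and the group's median signal was 1.25 and 0.834.

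**Figure D3:**
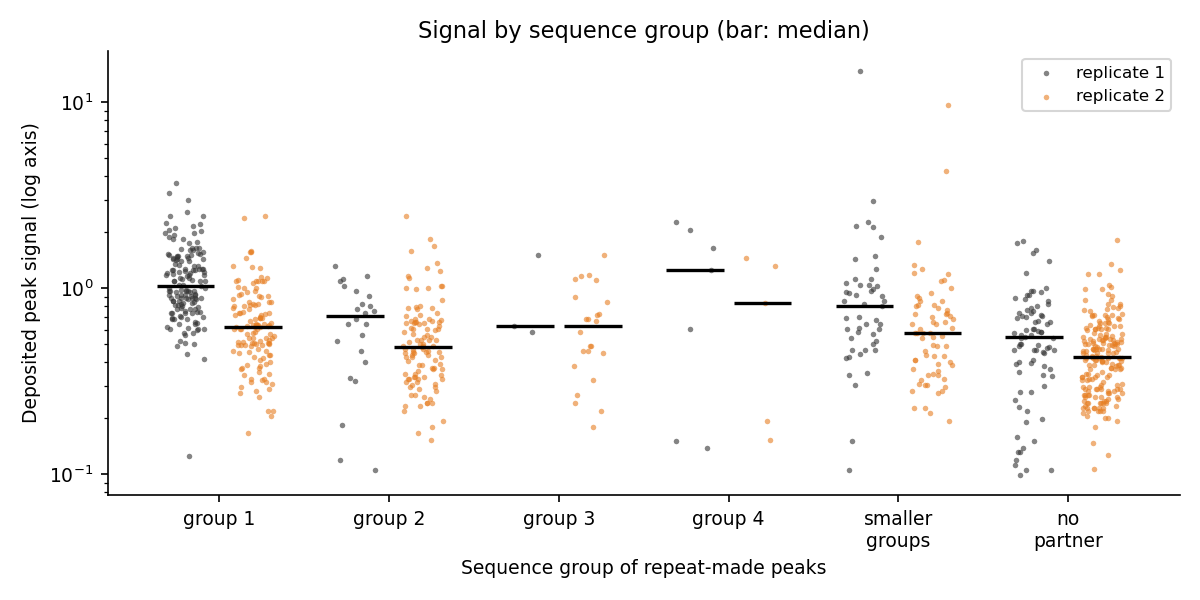
Deposited peak signal (vertical log axis) of every repeat-made peak by sequence group (horizontal axis), replicate 1 in dark grey and replicate 2 in orange, with a bar at each median. Group 1 has the most peaks in both libraries (152 and 129), and the strongest peaks, at 14.7 and 9.69, are in smaller groups.

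Peaks without a partner were as many as those of group 1 over both libraries (281 each), with 82 in replicate 1 and 199 in replicate 2. Their median widths were 80 and 76 bp, which the grouping itself favours, since a peak shorter than the 80 bp of alignment it asks for cannot have a partner. Tandem arrays of units of up to 6 bases made up at least 50% of 2 and 11 repeat-made peaks.

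Repeat-made peaks were also less unique in sequence, though most could be placed by at least part of their bases. On average 72.0% and 67.7% of their 32-base windows occurred once in the genome, on either strand, against 99.4% and 99.5% for repeat-free peaks, a difference of -29.6 percentage points ± 3.05 (SD, n = 2). The share is a description of the reference only, since the read length is not given in the labels. At least 90% of the windows were unique in 137 and 189 repeat-made peaks (43.2% and 35.1%), and none was in 18 and 25. Fully masked members had 47.2% and 46.2% unique windows, and members 80 to below 100% masked had 82.1% and 79.3%. The median signal of members with 90 to below 100% unique windows was 0.983 and 0.624, against 0.462 and 0.347 for those with none. The signal did not climb steadily with uniqueness, since fully unique members had medians of 0.851 and 0.480, and the strongest member of each library, described below, had no unique window.

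Footprint density did not set the class apart in a constant direction. Repeat-made peaks had 605 and 774 footprints, or 14.3 and 10.7 per kb of peak, against 13.9 and 11.7 per kb in repeat-free peaks. The difference of -0.304 per kb ± 1.02 (SD, n = 2) was within the spread between libraries. Peaks with no footprint were more frequent among repeat-made peaks, at 38 of 317 and 148 of 539 (27.5%), against 8.86% and 14.9% of repeat-free peaks. Among all distal peaks 7.41% and 12% had none. The difference, 7.86 percentage points ± 6.69 (SD, n = 2), was positive in both libraries. Among the bins of masked share, fully masked members had the highest shares, 23.9% and 35.6%. In peaks that were 20 to 80% masked, footprints covered 23.6% of masked bases and 21.3% of unmasked bases in replicate 1, and 15.6% and 14.99% in replicate 2. Inside repeat-made peaks they covered 23.9% of masked bases and 19.3% of the few unmasked ones in replicate 1, and 13.3% and 10.7% in replicate 2.

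At roughly matched signal the picture differed. Distal peaks were split into 5 equal bins by signal within each library, and the bins were weighted by their number of repeat-made peaks. Repeat-made peaks then had 1.81 footprints per kb more than repeat-free peaks in replicate 1 and 0.810 more in replicate 2 (mean 1.31 ± 0.705, SD, n = 2). The gap in peaks with no footprint was then -0.884 and 2.16 percentage points. In the middle bin, repeat-made peaks had 16.3 and 13.9 footprints per kb, against 12.5 and 11.6 in repeat-free peaks. They were also narrower there, with median widths of 150 and 144.5 bp against 180 and 190 bp, which raises a value per kb. Footprints per peak at matched signal were not compared. In the weakest bin the densities lay close together, at 10.96 and 6.78 against 10.7 and 7.29. The bins matched signal only roughly. In the weakest bin the median signal of repeat-made peaks was 0.488 and 0.334, against 0.561 and 0.374 for repeat-free peaks. In the middle bin it was 1.11 and 0.801 against 1.12 and 0.834, and in the 2nd bin of replicate 1 it was higher, at 0.812 against 0.805. Over all signals the CTCF motif moved with the footprint density: leaving out every peak that held it, in both classes, the difference, repeat-made minus repeat-free, was -1.56 per kb in replicate 1 and -1.66 per kb in replicate 2. Its part in the difference at matched signal was not tested.

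**Figure D4:**
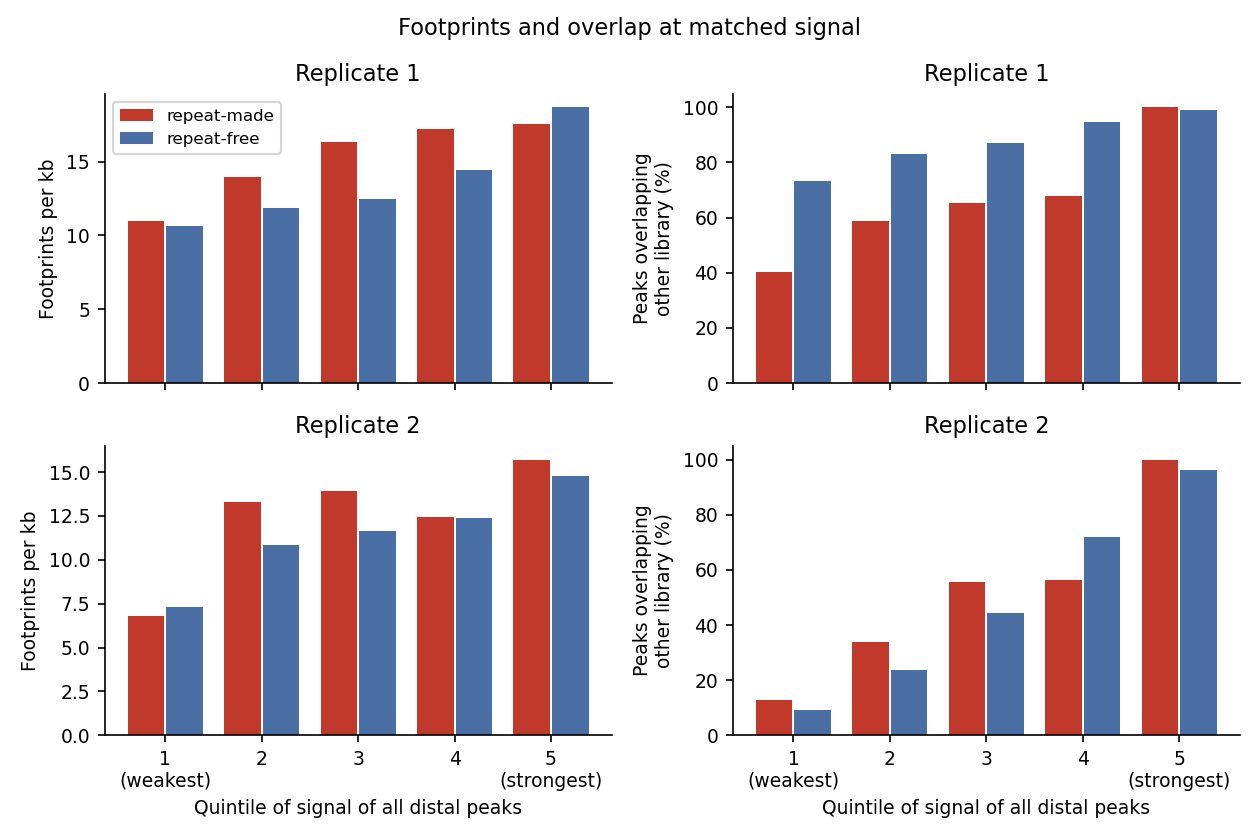
Footprints per kb of peak and share of peaks overlapping a main peak of the other library (vertical axes) in 5 bins of signal of all distal peaks (horizontal axis), for repeat-made (red, left bar) and repeat-free (blue, right bar) peaks of each library. In replicate 1 the red bar for overlap is lower in the 4 weaker bins, and in replicate 2 it is lower in the 4th bin only.

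Repeat-made peaks were found less often in the other library. In replicate 1, 178 of them (56.2%) overlapped a main peak of replicate 2, against 86.9% of repeat-free peaks. In replicate 2, 165 (30.6%) overlapped a main peak of replicate 1, against 46.8% of repeat-free peaks. Of all distal peaks, 86.9% and 49.2% did so. The difference between the classes was -23.5 percentage points ± 10.3 (SD, n = 2). The shares of the libraries are not independent measurements, since both count the same overlaps against lists of different length. With the wider, longer list of the other library taken in, the shares were 73.5% and 49.5% for repeat-made peaks and 94.2% and 67.6% for repeat-free peaks, so 82 and 272 repeat-made peaks had no partner in any list.

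At roughly matched signal the gap held in replicate 1 and turned round in replicate 2. In replicate 1, repeat-made peaks overlapped less often in the 4 weaker bins of signal, from 40.2% against 73.2% in the weakest bin to 68.0% against 94.7% in the 4th, and in the strongest bin all 11 overlapped, as did 99.0% of repeat-free peaks. In replicate 2 they overlapped more often than repeat-free peaks in the 3 weakest bins, with 34.0% against 23.7% in the 2nd and 55.6% against 44.3% in the third, and less often in the 4th, with 56.2% against 71.9%. Weighted over the bins, the difference was -26.4 percentage points in replicate 1 and 4.81 in replicate 2. Over all signals and by the main lists, the overlap of repeat-made peaks moved with the CTCF motif in a different way in each library. Repeat-made peaks of replicate 2 with the motif overlapped in 64.4% of cases and those without it in 21.1%, whereas in replicate 1 the shares were 51.0% and 60.3%. Group 1, where the motif is common, made up 47.9% of the members of replicate 1 and 23.9% of those of replicate 2; the part of this in the overlap was not tested.

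Where both peaks of a one-to-one pair were repeat-made, the signal was mostly higher in replicate 1. Of 130 one-to-one pairs in which both peaks were members, 100 had the higher signal in replicate 1, and the log2 difference, replicate 1 over replicate 2, was 0.52 at the median with an SD over pairs of 0.65. A further 44 peaks of replicate 1 were members paired with a peak of replicate 2 that was no member, with median signals of 0.871 and 0.954. Their median log2 difference was -0.12. For 17548 pairs of repeat-free peaks the median was 0.06 and the SD 0.69. Of these, 53.0% had the higher signal in replicate 1, against 76.9% of the repeat-made pairs. The log2 signals of the libraries had a correlation across pairs of r = 0.707 for repeat-made peaks and r = 0.728 for repeat-free peaks, as a description over peaks of the same libraries. The lean moved with the motif in both classes. With a CTCF motif, the median difference was 0.80 for repeat-made pairs (61 pairs, 57 of them or 93.4% higher in replicate 1). For repeat-free pairs with the motif it was 0.71 (3046 pairs, 85.8% of them higher in replicate 1). Without the motif, the median was 0.21 for repeat-made pairs (69 pairs, 43 of them or 62.3% higher) and -0.06 for repeat-free pairs (14502 pairs, 46.1% higher). In which way the libraries differ at these sites was not tested.

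**Figure D5:**
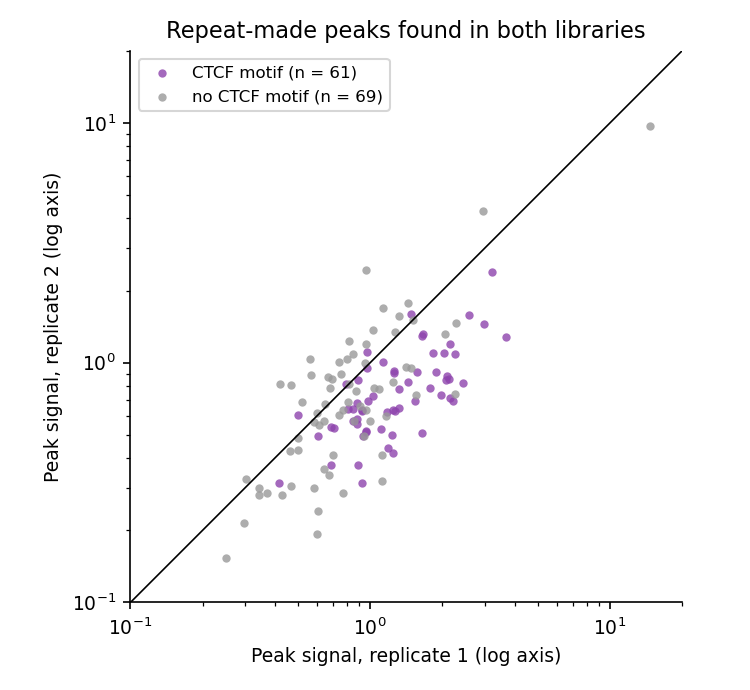
Deposited peak signal in replicate 1 (horizontal log axis) and replicate 2 (vertical log axis) of the 130 one-to-one pairs of repeat-made peaks, with the 61 pairs that hold a CTCF motif in purple and the others in grey; the line marks equal signal. Of the purple points, 57 lie below the line.

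By the mean of both libraries, the pairs of repeat-made peaks with the highest signal were satellite-like. At chr9:3002041-3002220, in a coding exon annotated to the predicted gene Gm10722 and 1119 bp from its TSS, the signal was 14.7 in replicate 1 and 9.69 in replicate 2 (12.2 ± 3.57, SD, n = 2). At chr9:3006800-3006920, in a coding exon of the predicted gene Gm11168, it was 2.95 and 4.28 (3.61 ± 0.939). None of the 32-base windows of either peak was unique, and those of the first occurred a median of 35 times in the genome. Both lie in the first 50 kb of known sequence of chromosome 9, which matched itself best at a shift of 234 bases (59.9% of bases equal, against a median of 29.9% at other shifts). Mouse pericentromeric satellite DNA has a unit of about this length, and only part of it is in the reference. Each library had 11 main peaks in this stretch, of which 2 were members, since the others lay within 1 kb of an annotated TSS. The stronger peak had footprints over 69 of its 180 bases in replicate 1.

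Of the next strongest pairs, 5 held a CTCF motif, and 4 of these belonged to group 1. The peak in an intron of Adgra1, which encodes an adhesion receptor, had 3.23 in replicate 1 and 2.40 in replicate 2 (2.81 ± 0.592, SD, n = 2), with 98.2% of its windows unique. The peak in an intron of Ccdc65, which encodes a part of motile cilia, had 3.67 and 1.28 (2.47 ± 1.69), 2310 bp from the gene's TSS. The libraries differed far more at the Ccdc65 peak than at the Adgra1 peak. Intergenic peaks on chromosome 15, at 99469181 to 99469340 near Gm49484, and chromosome 3, near Gm12489, had 2.995 and 1.45 (2.23 ± 1.09), and 2.57 and 1.57 (2.07 ± 0.706). The peak near Gm12489 had 5 footprints in replicate 1, 2 in replicate 2, and wholly unique windows. The peak in an intron of Ablim1, which encodes an actin-binding protein, had 2.16 and 1.20, the CTCF motif and, with 6 footprints, the most of any member of replicate 1. Its windows were 33.3% unique, with a median of 2 copies in the genome.

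The other 3 of the 10 strongest pairs had no CTCF motif, like both pairs on chromosome 9. Those at 53936021 to 53936240 on chromosome 14, 9043 bp from the TSS of the T cell receptor segment Trav22, and in an intron of Pcdh9, which encodes a protocadherin, belonged to group 4. They had 2.27 and 1.46, and 2.05 and 1.31, with 14.8% and 24.8% of the windows unique in replicate 1. No footprint was called in the Pcdh9 peak in either library, and 4 were called in the Trav22 peak in each. The peak in an intron of Rbfox2, which encodes a splicing regulator, belonged to group 2 and, like the Gm11168 peak on chromosome 9, was higher in replicate 2, with 0.963 in replicate 1 and 2.44 in replicate 2. The peak near Os9, which encodes a lectin of the endoplasmic reticulum, was the strongest pair of group 3 and had 1.504 and 1.51.

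The strongest members of a single library, with no peak in any list of the other, differed in kind. In replicate 1 they were a second peak near Trav22 (1.64) and 4 peaks of group 1 with a CTCF motif: in introns of Csmd2 (1.43) and Cd80 (1.19) and in intergenic sequence near Mir1969 (1.41) and Gm13401 (1.21). In replicate 2 none of the 5 held the motif. They lay in introns of Spin1 (1.17), Adcy1 (1.14), Ythdc2 (1.101) and Kcnd3 (1.001) and in an intron 9508 bp from the TSS of Gm16675 (1.101), with groups 2 and 3 giving 4 of them. Adcy1 encodes an adenylyl cyclase of neurons and Kcnd3 a potassium channel. Among the 5 members with the most footprints in each library, with ties ordered by signal, those of replicate 1 with 5 footprints each lay near Gm12489, Gm47591 (in Anks1b), Zbtb24 and Gm44760, all with the motif. In replicate 2 the Gm10722 peak and a peak near Mir6361 had 6, and peaks in Ano3 and near Gm11195 and Gm8080 had 5, with the motif in the Gm11195 peak alone.

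By location, few repeat-made peaks were exonic. Coding exons held 0.631% and 0.557% of them, against 6.48% and 4.94% of repeat-free peaks, and intergenic sequence 46.1% and 52.7% against 40.8% and 41.2%. Introns held 51.4% and 46.0% against 49.3% and 50.8%. The median distance to the nearest TSS was 12155 and 14975 bp for repeat-made peaks, against 15626.5 and 17939 bp for repeat-free peaks. Per Mb of known sequence, members ranged over the autosomes from 0.0599 (chromosome 12) to 0.229 (chromosome 15) in replicate 1 and from 0.145 (chromosome 12) to 0.289 (chromosome 4) in replicate 2. No member lay inside or within 10 kb of any of 68 autosomal marker genes of neurons, astrocytes, oligodendrocytes, microglia, liver and muscle. Repeat-free peaks lay there at 16 and 17 of 19 neuron genes, 7 and 6 of 10 astrocyte genes, 7 and 5 of 9 oligodendrocyte genes and 7 and 9 of 10 microglia genes. They lay at 2 and 2 of 10 liver genes and 6 and 4 of 10 muscle genes. Repeat-made peaks are too few to fill such lists: 1.23% and 1.77% of all protein-coding genes had a repeat-made peak that near, against 45.2% and 52.7% with a repeat-free peak. Genes of the zinc finger family named Zfp, some of whose proteins silence transposable elements, had one at 3 and 6 of 388 genes (0.773% and 1.55%).

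All 317 and 539 members reached a per-base false discovery rate of 0.001 or below in the authors' deposited values, as did all 46778 and 81903 distal peaks. Bases at that level made up 98.4% and 97.02% of the sequence of repeat-made peaks, against 98.5% and 98.1% of that of repeat-free peaks.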

How the data were processed

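DNase-seq data of 2 libraries were used as deposited on mm10. Per the notes deposited with the files, the authors made the peak and footprint lists from the filtered alignments of each library by itself. The sources used here name no caller or threshold. The peak signal was deposited by the authors on an unstated scale; below 500 steps it was a whole multiple of 0.00660 (replicate 1) or 0.00667 (replicate 2) for 100% of peaks within 0.05 of a step. Deposited per-base false discovery rates (FDR, a q-value) are listed by the authors up to 0.05. The score deposited with the footprints was 0.01 throughout and was not used.

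Masking, uniqueness and sequences came from the RefSeq sequence GRCm38.p6, and TSSs from the GENCODE M21 basic set. The reference holds C57BL/6 sequence, so the CAST form of the sequences, motif matches and masking is not seen. Peaks and footprints were not split by allele. A 32-base window was called unique when found once on both strands of all chromosomes. Footprints were assigned by their centre, and 1 bp of overlap made peaks shared. Members were grouped with blastn 2.17.0; other steps used Python 3.11.15, numpy 2.4.6, pandas 2.3.3, numba 0.67.0 and matplotlib 3.10.9. All 6 checks on simulated data returned the known answers. The members, lists and rules were chosen with earlier results of these data known. Named peaks are the 10 pairs of highest mean signal, the 5 strongest of a single library, the 5 with the most footprints per library and the strongest pair of each group. Alternatives included other masking thresholds, the wider peak lists and matched signal; 7 were added after seeing the data, among them those without CTCF motifs.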

Additional observations from a re-analysis of the deposited data

How the results depend on the processing

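Of 73 alternative values of the differences, 68 kept their sign, and the cause of the changes was not tested. The sign is that of the mean where both libraries were used, so a single library can have turned. Differences are repeat-made minus repeat-free, except for the log2 difference between libraries over pairs. Footprints per kb (-0.304) changed sign at 50% masking (0.315), with equal numbers of strongest peaks (0.570), with 90% unique windows (1.11) and within signal bins (1.31), and were -1.91 with the wider lists and -1.61 without CTCF motifs. Median signal (-0.259) stayed negative in all 13 values: -0.173 at 50% and -0.353 at full masking, -0.315 against all other distal peaks, -0.209 with 90% unique windows, -0.228 within GC bins and -0.302 without CTCF motifs. The mean number of members (428) was 1720 at 50% and 141.5 at full masking, 1281 in the wider lists, 232.5 with equal numbers of strongest peaks and 163 with 90% unique windows. Unique windows (-29.6 percentage points) moved to -13.3 at 50% and -52.8 at full masking and to -36.4 without CTCF motifs. With 90% unique windows, a filter on the same measure, the value was -2.09. Overlap with the other library (-23.5 percentage points) was -10.8 within signal bins, with -26.4 in replicate 1 and 4.81 in replicate 2. The share with no footprint (7.86) was 17.9 at full masking and 21.4 in the wider lists. Within signal bins it was 0.636, with -0.884 in replicate 1 and 2.16 in replicate 2. Without each replicate in turn, footprints per kb ran from -1.03 to 0.418, median signal from -0.280 to -0.238, members from 317 to 539, unique windows from -31.8 to -27.5, overlap from -30.8 to -16.2 and no footprint from 3.12 to 12.6. Width kept its sign throughout. No paired analysis was possible because there is a single group of samples and no other group to pair it with; both classes of peaks were already compared within each library.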
